A study of Mus musculus with 73 samples.

Results

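The *Nodal* locus supplied 7 enhancer fragments, Nodal_E156 to Nodal_E162, to a combinatorial reporter assay of 59 enhancer fragments from 9 loci. The combinations described here were taken by name: a *Nodal* fragment with a control sequence (EC combinations, 4931), or with another *Nodal* fragment (818), which makes 5749 of the 110180 combinations measured. Both fragments of a combination were cloned downstream of a barcoded reporter, in position 1 or 2 and on either strand, and reporter activity was the ratio of barcode counts in cDNA over plasmid DNA (pDNA). There were 8 plasmid libraries, 1 per promoter, which received the same pool of fragment pairs but hold different numbers of combinations. By the study's methods, libraries of low complexity were assembled again by another cloning route. The developmental promoters were those of *Sox2*, *Klf2*, *Otx2*, *Fgf5*, *Lefty1*, *Nanog* and *Tbx3*, genes of the pluripotency network or of its dissolution, and the housekeeping promoter was that of *Ap1m1*, which encodes an adaptor subunit of clathrin-coated vesicles. The *Nodal* promoter was not among them. All libraries were transfected into E14tg2a cells, an established line of mouse embryonic stem cells (mESCs) kept in the naive state with 2i and LIF, in 3 biological replicates (BR1 to BR3) each, on different days, and RNA was collected after 24 hours. The reporters were plasmids, so the fragments acted outside their chromosomal surroundings.

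*Nodal* encodes a secreted ligand of the TGF-beta family that signals through activin receptors and Smad proteins and keeps the epiblast from differentiating too early. Nodal signalling induces *Nodal* itself, through an enhancer in an intron, and it induces *Lefty1*, which encodes a secreted inhibitor of Nodal. Other enhancers of the gene lie upstream of it, and some of these are active in pluripotent cells.

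In mm10 the fragments were defined as windows of 450 bp on chromosome 10, and the *Nodal* gene spans 61417972 to 61425338 in the RefSeq annotation of GRCm38. Upstream of the gene and outside any annotated protein-coding gene lie Nodal_E156 (chr10:61405298-61405747), Nodal_E157 (chr10:61405916-61406365), Nodal_E158 (chr10:61410167-61410616), Nodal_E159 (chr10:61415836-61416285), Nodal_E160 (chr10:61416186-61416635) and Nodal_E161 (chr10:61416552-61417001). Nodal_E162 (chr10:61423210-61423659) lies within the gene, 5238 bp after its start. The most distal fragment, Nodal_E156, ends 12225 bp before the gene, and Nodal_E159 ends 1687 bp before it. The windows of Nodal_E159 and Nodal_E160 overlap by 100 bp and those of Nodal_E160 and Nodal_E161 by 84 bp, whereas 168 bp separate Nodal_E156 from Nodal_E157.

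The amplification primers of Nodal_E159, Nodal_E160 and Nodal_E161 are shown because these fragments overlap and the first of them was the strongest. The capitals mark the 11 bases that the reverse primer of Nodal_E159 and the forward primer of Nodal_E160 have in common on opposite strands. They place the end of the Nodal_E159 product 32 bp inside the Nodal_E160 product.
Nodal_E159 forward primer: tccttgttccctacactataagcatcc
Nodal_E159 reverse primer: ttgaaccagCGGTCTCCTGC
Nodal_E160 forward primer: tttacttagcacGCAGGAGACCG
Nodal_E160 reverse primer: cacaagttgcgggatgagcag
Nodal_E161 forward primer: cagttcctacaggatcacgcag
Nodal_E161 reverse primer: tttcacgctgcataaatgattgagttc

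The boost index is the median log2 activity of a fragment's EC combinations minus the median of the control-control (CC) combinations of the library. It was obtained for 6 of the 7 fragments, from 398 (Nodal_E156) to 1173 (Nodal_E157) EC combinations above 0 over all libraries. Nodal_E161 was measured in no EC combination. Of 61 EC combinations with an activity of 0 in a replicate, 59 belonged to the *Fgf5* library. A value of 0 cannot be put on the log2 scale, so these were omitted, as were 37 of the 60 CC combinations of *Fgf5*, and the *Fgf5* baseline rests on 23 combinations. All other baselines rest on 219 to 477. Without barcode numbers in the table, depth is unknown for single combinations.

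Most pairs of a *Nodal* fragment and a promoter were above the controls. A rank-sum test of EC against CC combinations, adjusted over 451 enhancer-promoter pairs of all loci at a 1% FDR, called 42 of 48 *Nodal* pairs higher and 2 lower. Over all loci, 87.6% of the pairs were called higher and 1.77% lower, so the *Nodal* share did not stand out. Of the 42 pairs with promoters other than *Fgf5*, 41 were called higher, and Nodal_E157 with *Nanog* was the exception (boost index 0.15, FDR = 0.0115). The 2 lower pairs were Nodal_E157 and Nodal_E162 with *Fgf5*, and without replicate 2 this number was 0. EC combinations share fragments with each other and are not independent, and with 1 value per control sequence in place of single combinations 34 pairs were higher. Nodal_E157 then remained higher with *Ap1m1* only. The share over all loci in this setting is not given here, so the lower count cannot be set against that of other loci.

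Nodal_E159 was the strongest of the *Nodal* fragments on every developmental promoter, with an average boost index of 2.80 over the 8 promoters. This was the 5th highest of the 58 enhancers of all loci, and the 7th highest without *Fgf5*. Only 49 of the enhancers were measured with all promoters, and the others were averaged over fewer. The boost index of Nodal_E159 with *Lefty1* was 4.49, 4.60 and 4.59 in the 3 replicates, or 24.0-fold over the controls (FDR = 1.81e-119, rank-sum test). This test took 124 EC combinations as separate values although they are not independent, so its FDR does not measure the spread between replicates. With *Tbx3* it was 4.45, 4.27 and 3.63, and with *Sox2* 4.19, 4.01 and 4.03. With *Fgf5* it was 4.30, 3.63 and 3.45, from 8 EC combinations.

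A lower response was seen with the remaining developmental promoters, although every EC combination of Nodal_E159 was above the baseline with each of these promoters too. The boost index of Nodal_E159 was 1.55, 2.14 and 1.65 with *Nanog*. It was 1.66, 1.90 and 1.65 with *Klf2*, and 1.43, 1.66 and 1.98 with *Otx2*. These replicates lie below all those with *Lefty1*, *Tbx3*, *Sox2* and *Fgf5* and overlap one another.

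The housekeeping promoter responded least to Nodal_E159. Its boost index with *Ap1m1* was 0.23, 0.60 and 0.26, a 1.30-fold increase. The rank-sum test over 121 EC combinations, which are not independent, called it (FDR = 1.29e-11), and limma on the replicates did not. All 21 replicate values of Nodal_E159 with the developmental promoters were higher. With *Ap1m1*, Nodal_E159 ranked 35th of 57 enhancers, and with the developmental promoters between 2nd and 9th. The mean over the 7 developmental promoters minus *Ap1m1* was 2.78 log2 units, the 3rd highest among 49 enhancers measured with all promoters, and the median over these enhancers was 0.56.

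Nodal_E156, Nodal_E158 and Nodal_E160 had an intermediate activity. Nodal_E156, the most distal fragment, was strongest with *Sox2* (1.78, 1.58 and 1.66), *Lefty1* (1.52, 1.08 and 1.51) and *Tbx3* (1.52, 1.41 and 1.28). The replicates of these 3 promoters were all above those with *Nanog* (0.81, 0.84 and 0.74), *Otx2* (0.80, 0.63 and 0.81) and *Klf2* (0.71, 0.63 and 0.71). *Ap1m1* was lower again, at 0.48, 0.46 and 0.42.

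Nodal_E160, which adjoins the strong Nodal_E159, followed a like order at a lower level when both positions were pooled. It gave 1.41, 1.34 and 1.04 with *Tbx3*, 1.17, 1.23 and 1.29 with *Lefty1* and 1.04, 1.08 and 1.04 with *Sox2*. The *Tbx3* replicates overlapped those of both other promoters. Boost indices of Nodal_E160 were 0.81 with *Nanog*, 0.72 with *Otx2*, 0.67 with *Klf2* and 0.40 with *Ap1m1*. In position 1 alone Nodal_E160 gave 2.21 with *Lefty1* and 2.05 with *Tbx3*, against 1.81 and 1.99 for Nodal_E156. In position 2 it gave 0.80 and 1.00, against 1.07 and 1.32 for Nodal_E156.

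Nodal_E158 was the fragment least affected by the kind of promoter among these. Its boost index with *Ap1m1* was 0.70, 0.70 and 0.68, and with *Nanog* 0.66, 0.65 and 0.63. From the mean activity of the replicates it was 0.65 with both. On *Ap1m1* it was the strongest *Nodal* fragment and ranked 14th of 57 enhancers. It reached 1.32, 1.05 and 1.25 with *Sox2*, and 1.12, 0.98 and 0.83 with *Tbx3*. Its mean over the developmental promoters minus *Ap1m1* was 0.058, and 0.19 without *Fgf5*.

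Nodal_E157 and the intragenic Nodal_E162 were the weakest. Outside *Fgf5*, the boost index of Nodal_E157 ranged from 0.15 (*Nanog*) to 0.30 (*Tbx3*), and that of Nodal_E162 from 0.21 (*Nanog*) to 0.40 (*Otx2*). They ranked 57th and 55th of 58 enhancers by average boost index, and 56th and 54th without *Fgf5*. Nodal_E157 with *Lefty1* gave 0.26, -0.02 and 0.37, and Nodal_E162 with *Lefty1* 0.11, 0.22 and 0.35. When only combinations with an activity of at least 0.05 in every replicate were kept, these changed sign, to -0.10 (called lower) and -0.090 (not called).

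With the *Fgf5* promoter only Nodal_E159 was called higher, and the values of all 6 fragments depended on the treatment of zeros. Nodal_E157 was at -0.97, -1.08 and -1.14 and Nodal_E162 at -0.84, -0.81 and -0.85. Nodal_E156 gave 0.38, -0.33 and -0.41, Nodal_E158 0.12, -0.17 and -0.75, and Nodal_E160 0.19, -0.11 and -0.54, so these 3 lay on both sides of the baseline. Activity was 0 in 20 of 96 EC combinations of Nodal_E157 and 25 of 97 of Nodal_E162, against 37 of 60 CC combinations. With the zeros kept and 0.01 added to each activity, the boost indices became 0.50 for Nodal_E157 and 0.43 for Nodal_E162, both with the opposite sign and neither called. In that setting Nodal_E159 reached 5.41, and Nodal_E158 (1.39) and Nodal_E160 (1.23) were called higher and Nodal_E156 (1.31, FDR = 0.0239) was not.

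All 6 *Nodal* fragments differed between promoters in an F-test with limma over the 24 transfections. The same held for 100% of the 49 enhancers tested, so this is no property of the *Nodal* locus. The test covers the spread between transfections of 1 library and not the choice of combinations or the error of a baseline that all fragments of a library share. Without the *Fgf5* library, Nodal_E157 (adjusted p = 0.658) and Nodal_E162 (adjusted p = 0.126) were no longer called by limma, which still called 52 of 55 enhancers (94.5%). Their boost indices then spanned 0.15 and 0.19 log2 units. Nodal_E159 spanned 4.21 log2 units, the 2nd widest span of the 49 enhancers.

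Fragments were also compared with each other within libraries. limma on the difference of boost indices over the 8 libraries called 11 of the 15 *Nodal* pairs, and 74.0% of 1596 pairs of all loci. Nodal_E159 exceeded Nodal_E160 by 2.08 ± 0.47 (SE, 8 libraries; limma, adjusted p = 0.00383) and was higher in 7 of 8 libraries, *Ap1m1* being the exception. Nodal_E156 exceeded its neighbour Nodal_E157 by 0.85 ± 0.14 and was higher in all 8 libraries. limma did not call the differences among the intermediate fragments: Nodal_E156 minus Nodal_E158 was 0.22 ± 0.10 (adjusted p = 0.076), Nodal_E156 minus Nodal_E160 was 0.20 ± 0.09 (0.062), and Nodal_E158 minus Nodal_E160 was -0.02 ± 0.10 (0.851). Nodal_E156 was nevertheless above Nodal_E160 in 8 of 8 libraries (exact sign-flip permutation test, unadjusted p = 0.0078) and above Nodal_E158 in 7 of 8 (exact permutation test, unadjusted p = 0.0469). Nodal_E157 and Nodal_E162 differed by -0.10 ± 0.07, which limma did not call (adjusted p = 0.221), although Nodal_E157 was higher in 1 of 8 libraries only (exact permutation test, unadjusted p = 0.0156).

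The median *Nodal* fragment lay below the median of the rest in each library. The median of the 6 fragments minus the median of the other enhancers was negative in all 8 libraries, from -0.05 with *Ap1m1* to -0.97 with *Fgf5*, with a mean of -0.37 (exact sign-flip permutation test over libraries, two-sided, p = 0.0078, the smallest it can give). Without *Fgf5* the mean was -0.29 (exact permutation test, p = 0.0156). The libraries share the same 6 fragments, which ran from 0.24 to 4.59 with *Lefty1*, so the test covers the promoters and not the choice of fragments.

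Some fragments differed between the positions relative to the reporter. The question was whether position 2 gave the same boost index as position 1, and limma over libraries called 14.3% of 56 enhancers higher in position 2 and 30.4% lower. Nodal_E158 was higher in position 2 by 0.41 ± 0.04 (SE; adjusted p = 3.82e-05) and Nodal_E162 by 0.44 ± 0.06 (adjusted p = 0.000123), in all 8 libraries each. With *Sox2*, Nodal_E158 gave 1.08, 0.86 and 0.92 in position 1 and 1.39, 1.25 and 1.48 in position 2, and the replicates did not overlap. Nodal_E162 with *Lefty1* gave -0.20, -0.21 and 0.10 in position 1 and 0.49, 0.43 and 0.58 in position 2. In position 1 the replicates of the intragenic fragment thus lay on both sides of the *Lefty1* baseline.

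Nodal_E159 had no position difference beyond the spread between libraries (0.07 ± 0.07, 7 libraries, limma, adjusted p = 0.408). Nodal_E157 was higher in position 2 in all 8 libraries, but by only 0.11 ± 0.05 (limma, adjusted p = 0.062). Nodal_E156 and Nodal_E160 were lower in position 2, by -0.35 ± 0.12 (adjusted p = 0.032) and -0.50 ± 0.15 (adjusted p = 0.018). In position 1, however, both were measured almost only on the minus strand, with 119 EC combinations against 2 on the plus strand for Nodal_E156, and 185 against 6 for Nodal_E160. Within the minus strand the difference was -0.10 ± 0.06 for Nodal_E156 (adjusted p = 0.223) and -0.35 ± 0.15 for Nodal_E160 (adjusted p = 0.109), and limma called neither. Within that strand limma called 16.4% of 55 enhancers higher in position 2 and 18.2% lower, and Nodal_E157 was among the higher ones, at 0.35 ± 0.06 (adjusted p = 0.00166).

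Strand was also associated with activity. Plus minus minus strand, averaged over both positions, could be tested for 4 of them, and limma called all 4, against 28.3% of 46 enhancers higher and 28.3% lower on the plus strand. Nodal_E157 (-0.28 ± 0.04) and Nodal_E159 (-0.13 ± 0.05) were lower on the plus strand, and Nodal_E158 (0.19 ± 0.04) and Nodal_E162 (0.33 ± 0.06) were higher. Each had the same sign in every library tested, 8 for Nodal_E157 and Nodal_E162 and 6 for Nodal_E158 and Nodal_E159. Within position 2 all 6 fragments could be tested and limma called all 6, against 21.4% of 56 enhancers higher and 25.0% lower. There Nodal_E156 was lower on the plus strand by -0.43 ± 0.11, in 7 of 8 libraries, and Nodal_E160 by -0.31 ± 0.07, in 8 of 8. With *Sox2*, Nodal_E162 in position 1 gave 0.28, 0.40 and 0.36 on the plus strand and -0.33, -0.11 and -0.23 on the minus strand. These replicates lay above the baseline of *Sox2* on one strand and below it on the other.

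The control sequence beside a fragment shifted its activity. Over all *Nodal* EC combinations, the mean deviation from the median of the same fragment, library, position and strand ran from -0.38 with the control E95-shuffled1 to 0.39 with RandomE5. The same controls gave -0.43 and 0.40 beside the 52 other fragments. For Nodal_E159 alone the deviations ran from -0.42 (E95-shuffled1) to 0.29 (E46-shuffled3), small beside its boost index on most developmental promoters. The boost indices of Nodal_E157 and Nodal_E162, at most 0.40, were of the size of these deviations.

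With *Lefty1*, Nodal_E160 in position 1 and on the minus strand had an SD over combinations of 1.24. This was the largest among all arrangements of a *Nodal* fragment with at least 6 EC combinations. With *Sox2*, *Klf2*, *Nanog*, *Ap1m1* and *Fgf5*, Nodal_E160 in this arrangement was not the most variable. With *Lefty1* its 30 EC combinations ran from 0.47 to 4.73 with a median of 2.25. The highest, beside E30-shuffled3, was 4.54, 5.26 and 4.26 in the replicates, so the combinations differed by more than the replicates. With 10 controls, those measured with this arrangement in at least 7 libraries, the mean was between 0.99 and 2.53. With the other 8 controls, seen in at most 6 libraries, it was between 3.10 and 4.73, so these means did not overlap. With *Sox2* the only control of the latter set gave 3.57, against 0.44 to 1.89 for the former. With *Klf2*, *Otx2*, *Nanog*, *Tbx3* and *Ap1m1* both sets overlapped, and the median of the latter set was higher with the first 4 of these promoters (1.14 against 0.74, 1.29 against 0.81, 1.31 against 0.93 and 3.05 against 1.95) and lower with *Ap1m1* (-0.091 against 0.22). With *Lefty1*, the means of the latter set reach the range of Nodal_E159, whose lowest combination was 2.78. So does the combination beside RandomE3 from the former set, at 3.65. The same split of controls gave overlapping values for Nodal_E160 in position 2 on the minus strand (0.02 to 2.09 for 10 controls and 0.06 to 0.95 for 3) and for Nodal_E158 in position 1 on the minus strand (-0.03 to 1.35 for 10 and 0.22 to 1.72 for 9). This split was chosen after the values were seen, and what sets these combinations apart was not tested. The products of Nodal_E159 and Nodal_E160 share 32 bp, and whether some of these combinations hold Nodal_E159 was not tested, which limits all values with Nodal_E160 in position 1.

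Pairs of *Nodal* fragments were then compared with the sum of their single activities. The expected additive activity is the median EC activity of each fragment in its position, added together, minus the baseline. Of 818 combinations of *Nodal* fragments, 815 were above 0 in all replicates, and 805 had an expected activity above 0. The median log2 ratio of observed over expected activity was 0.09 with *Sox2*, 0.15 with *Lefty1* and 0.10 with *Tbx3*. It was -0.02 with *Klf2*, -0.01 with *Otx2*, 0.02 with *Nanog* and 0.01 with *Ap1m1*. *Fgf5* stood apart at 1.12, and its replicates gave 0.90, 0.90 and 2.01.

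Over the 8 libraries the mean of these medians was 0.18, which an exact sign-flip permutation test did not separate from 0 (two-sided, p = 0.0547). Without replicate 3 the mean was 0.14 and passed the threshold (exact permutation test, p = 0.0234). Without *Fgf5*, it was 0.05 (exact permutation test, p = 0.109).

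A difference between pairs within the locus and other pairs was not detected over libraries. *Nodal*-*Nodal* pairs minus pairs of a *Nodal* fragment with an enhancer of another locus gave a mean difference of 0.05 (exact sign-flip permutation test, p = 0.852), and minus same-locus pairs of the other 8 loci 0.06 (exact permutation test, p = 0.703). Both differences had the opposite sign without *Fgf5*, at -0.016 and -0.018. Under a multiplicative expectation both passed the test, at 0.094 and 0.28 (exact permutation test, p = 0.0078 each). Outside *Fgf5*, the median log2 ratio over that expectation was below 0 for every kind of pair, so *Nodal*-*Nodal* pairs fell short by less. With *Sox2* it was -0.145 for *Nodal*-*Nodal* pairs, -0.286 for *Nodal*-other pairs and -0.600 for same-locus pairs of other loci. These kinds of pair also differed in strength, with a median expected additive boost index of 1.54, 2.31 and 3.15 with *Sox2*. Among *Nodal*-*Nodal* pairs with *Sox2*, the ratio was -0.549 with Nodal_E159 and -0.098 without it. Only *Ap1m1* had the opposite order (-0.070 and -0.088). Whether strength accounts for the difference between kinds of pair was not tested. Counted one by one, 68 of 788 *Nodal*-*Nodal* combinations (8.63%) were more than 1 propagated SD above the expected activity and 18 (2.28%) more than 1 SD below. Among all enhancer-enhancer (EE) combinations these shares were 18.1% and 8.00%. The shares above were highest with *Fgf5* (19.2%), *Tbx3* (17.3%), *Lefty1* (14.8%) and *Sox2* (10.7%), and at most 4.95% with the other promoters. For all EE combinations they were 39.2%, 34.9%, 30.7% and 28.7% with these 4 promoters, and the difference from the *Nodal* pairs was not tested.

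Outside *Fgf5*, a second fragment added at most 0.74 log2 units to Nodal_E159. This gain was that of Nodal_E158 behind it with *Ap1m1*, where Nodal_E162 added 0.62 and Nodal_E159 alone gave only 0.17 in position 1. Nodal_E158 alone gave 0.80 with *Ap1m1* in position 2. A gain nearly as large, 0.73, was that of Nodal_E158 with *Tbx3*, where Nodal_E159 alone gave 3.97 in position 1. With Nodal_E159 in position 2 behind each of the other fragments, the activity exceeded that of Nodal_E159 alone by means between 0.089 (Nodal_E160) and 0.25 log2 units (Nodal_E156) over the 7 libraries other than *Fgf5*. With Nodal_E159 in position 1, the means over the same libraries were 0.44 ± 0.21 (SD) for Nodal_E158, 0.33 ± 0.18 for Nodal_E162 and 0.27 ± 0.15 for Nodal_E157, all above 0 in 7 of 7. They were 0.03 ± 0.28 for Nodal_E156 and 0.04 ± 0.18 for Nodal_E160. These 3 larger gains belong to the fragments whose single values were higher in position 2 in all 8 libraries. Whether the gains depend on that position difference was not tested. *Fgf5* was left out here because Nodal_E159 had 1 EC combination in position 1. In position 2 it had 7, and each gain with *Fgf5* was below 0 there, from -0.20 (Nodal_E162) to -0.04 (Nodal_E156). With *Fgf5* included, the means with Nodal_E159 in position 2 ran from 0.058 (Nodal_E162) to 0.21 (Nodal_E156).

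Of 49 possible ordered pairs, 34 were measured in any library and 29 in at least 6. None paired a fragment with itself. limma called 1 of the 29 above additivity and 0 below, against 20.7% and 9.16% of 2543 ordered pairs of all loci. By limma at an unadjusted p under 0.05 there were 8 above and 1 below. In the exact sign-flip test, 7 pairs above reached its smallest unadjusted p (0.0078), and 1 below reached 0.0156. Further pairs above had an unadjusted sign-flip p between 0.023 and 0.039. The number that limma called above was 3 without replicate 2, 6 without replicate 3 and 3 without *Fgf5*. Under a multiplicative expectation 0 were above and 3 below. Shares over all loci are not given for these other settings.

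The ordered pair above additivity was Nodal_E158 in position 1 with Nodal_E156 in position 2, at 0.45 ± 0.10 (SE, 8 libraries, limma, adjusted p = 0.0126) and above 0 in all 8 libraries. With *Lefty1* the boost index of this pair was 2.25, 1.80 and 2.07 in the replicates, against an expected 1.38. With *Sox2* it was 2.67, 2.06 and 2.78, against an expected 1.89. With *Otx2* and *Ap1m1* the observed activity was 0.04 and 0.14 above the expected one, so these promoters showed the smallest excess. *Fgf5* showed the largest (0.95), and the mean without it was 0.37 ± 0.09 (limma, adjusted p = 0.0077). The reverse order, Nodal_E156 before Nodal_E158, was at 0.40 ± 0.23 and was not called (adjusted p = 0.2003).

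A higher mean was reached by Nodal_E160 before Nodal_E156 (0.70 ± 0.29, 7 libraries, limma, adjusted p = 0.095) and Nodal_E156 before Nodal_E157 (0.46 ± 0.27, adjusted p = 0.215), neither of which was called. The former was uneven over promoters: with *Lefty1* its 2 combinations gave a boost index of 4.60, 4.36 and 4.39 in the replicates, against an expected 2.52, and with *Tbx3* 4.10, 4.00 and 2.47, against 2.49. With *Klf2*, *Nanog* and *Ap1m1* the log2 ratio of observed over expected activity was -0.18, 0.0058 and -0.091. With *Fgf5* it was 1.89, and the mean without *Fgf5* was 0.50 ± 0.25 (limma, adjusted p = 0.137). In this pair Nodal_E160 stood in position 1, the arrangement whose EC values varied most with *Lefty1*. For Nodal_E156 before Nodal_E157, *Fgf5* alone contributed 2.72, and the mean without it was 0.14 ± 0.06 (adjusted p = 0.111).

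The lowest means also had Nodal_E160 in position 1. Before Nodal_E162 it was at -0.19 ± 0.17, before Nodal_E159 at -0.16 ± 0.06 and before Nodal_E157 at -0.13 ± 0.20, and limma called none of these (adjusted p = 0.385, 0.069 and 0.622). Without *Fgf5* the means before Nodal_E162 and Nodal_E157 were -0.36 ± 0.09 (adjusted p = 0.009) and -0.35 ± 0.10 (adjusted p = 0.019), and both were called below additivity.

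Among measured pairs of overlapping fragments were only those of Nodal_E159 and Nodal_E160. In the order Nodal_E160 before Nodal_E159, the log2 ratio of observed over expected activity was below 0 in 7 of 8 libraries, and in the order Nodal_E159 before Nodal_E160 it averaged -0.02 ± 0.13 and was below 0 in 6 of 8 (limma, adjusted p = 0.931). With *Lefty1* the boost index was 4.58, 4.81 and 4.87 in the former order and 4.38, 4.80 and 4.75 in the latter. Nodal_E159 alone gave 4.49, 4.60 and 4.59 over both positions, so the ranges of single fragment and pair overlapped. In the matching position it gave 4.52, 4.53 and 4.58 (position 2, former order) and 4.35, 4.72 and 4.61 (position 1, latter order). Each of these values was below that of the pair in the same replicate.

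Nodal_E161, the upstream fragment nearest to the gene, occurred in 9 combinations, 6 of them with another *Nodal* fragment. Since it has no single-fragment value, no expected activity could be calculated. In position 1 on the minus strand before Nodal_E158 it gave a boost index of 3.71, 3.65 and 4.04 with *Lefty1*, and on the plus strand 3.19, 2.86 and 3.19. Nodal_E158 alone in position 2 gave 1.15, below every replicate of these pairs. Before Nodal_E162 with *Lefty1* it gave 2.33, 2.01 and 3.65, where Nodal_E162 alone gave 0.55, and before Nodal_E157 with *Sox2* it gave 2.41, 2.54 and 2.90, where Nodal_E157 alone gave 0.29. Behind Nodal_E158 it gave 1.82, 3.03 and 1.401 with *Tbx3*, where Nodal_E158 alone gave 0.76. The same pair with *Ap1m1* gave 1.37, 1.05 and 1.39, where Nodal_E158 alone gave 0.39. All 6 combinations with *Nodal* fragments were above the single value of their partner in every replicate. The other 3 combinations, all with *Ap1m1*, were not. Before Otx2_E111, Nodal_E161 gave 0.33, 0.53 and 1.73 against 1.02 for the partner alone. Behind it Nodal_E161 gave 0.37, 0.76 and 0.85 against 0.64, and behind Lefty1_E096 it gave 0.87, 0.98 and 0.16 against 0.48.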

How the data were processed

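The authors clustered barcodes, divided each barcode count by its sample total, took the ratio of cDNA over pDNA per barcode and averaged it over at least 5 barcodes with at least 8 pDNA counts. The deposited table gives this ratio for 3 biological replicates, each combined from 2 sequencing runs. Of 73 samples, 48 are cDNA, 16 pDNA and 9 inverse PCR samples. Sources name GRCm38 (mm10). Boost indices and expected activities deposited by the authors were not used.

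Activities were averaged geometrically over replicates, and combinations at 0 in any replicate were left out. Baselines, boost indices, SDs and expected activities were computed anew in pandas 2.3.3, scipy 1.17.1 and numpy 2.4.6 under Python 3.11.15. Single fragments were tested by a two-sided rank-sum test (exact, or by permutation where values were tied) at a 1% FDR. Differences between promoters, fragments, positions, strands and ordered pairs were tested with limma 3.58.1 (R 4.3.3) at a 5% FDR, adjusted over all loci, and values per library by exact sign-flip permutation. Libraries were the unit for all tests except those of single fragments and of promoters. The main rank-sum and limma tests, and the sign-flip test of *Nodal*-*Nodal* pairs against additivity, were tested on simulated data without zeros. The alternative settings, the shares beyond 1 SD and the differences between kinds of pairs were not.

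All fragments and promoters are named, and of ordered pairs the 3 highest and 3 lowest and those of overlapping fragments. Fragments and tests were chosen with earlier results of these data known. No fragment sequence was printed, because no genome was used here. Reads were not analysed here.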

Additional observations from a re-analysis of the deposited data

Results flagged for a closer look

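The boost index differed between promoters for each *Nodal* fragment with a single-fragment value, by the F-test with limma over 24 transfections. The F statistic was 103 for Nodal_E159, 49.6 for Nodal_E162, 36.2 for Nodal_E157, 28.5 for Nodal_E156, 25.3 for Nodal_E160 and 17.6 for Nodal_E158. All 49 enhancers tested differed between promoters. Without the *Fgf5* library, the statistic of Nodal_E162 was 1.96 and that of Nodal_E157 was 0.694, and neither was called, while 52 of 55 enhancers (94.5%) were. It was then 157 for Nodal_E159, 39.0 for Nodal_E156, 27.4 for Nodal_E160 and 14.5 for Nodal_E158, so the place of Nodal_E162 and Nodal_E157 in the order rests on *Fgf5*.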

How the results depend on the processing

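Leaving out 1 replicate in turn gave 38 to 43 *Nodal* pairs above the controls and 0 to 2 below, and without replicate 2 the 0 below had 2 at an unadjusted rank-sum p under 0.05. It gave 1 to 6 ordered pairs above additivity, 0 below, and a mean log2 ratio of observed over expected activity between 0.14 and 0.25. With zeros kept and a pseudocount of 0.01, 0 *Nodal* pairs were below the controls by the rank-sum test (0 at an unadjusted p under 0.05), and with *Fgf5* the boost index turned to 0.50 for Nodal_E157, 1.39 for Nodal_E158, 1.23 for Nodal_E160 and 0.43 for Nodal_E162. With an activity of at least 0.05 in every replicate, Nodal_E157 and Nodal_E162 with *Lefty1* turned to -0.10 and -0.090. The causes of these changes were not tested. In the exact sign-flip test, 2 strand differences (Nodal_E157 and Nodal_E162, 8 libraries each) reached an unadjusted p of 0.0078. Those of Nodal_E158 and Nodal_E159, with 6 libraries each, reached 0.031. By the same test, 7 ordered pairs above additivity were at an unadjusted p of 0.0078 and 1 below at 0.0156. Further pairs above were between 0.023 and 0.039. Under the multiplicative model limma called 0 ordered pairs above (0 at an unadjusted p under 0.05) and 3 below. The log2 ratio of observed over multiplicative activity was higher for *Nodal*-*Nodal* pairs than for *Nodal*-other pairs, by 0.094. It was higher than for same-locus pairs of other loci by 0.28 (exact permutation test, p = 0.0078 each). Outside *Fgf5* the median of this ratio was below 0 for every kind of pair. The kinds of pair also differed in expected activity, and the part of this in the difference was not tested. Without *Fgf5*, which was chosen after seeing the data for these results, these additive differences became -0.016 and -0.018, and 3 ordered pairs were above and 2 below additivity. Shares of calls over all loci are not given for the settings of this paragraph.

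The replicate block in the limma fit left all 6 *Nodal* fragments called. The numbers were not treated as pairing the libraries: 76 of 84 same-numbered deviations of 2 libraries correlated over 0.1, from -0.24 to 0.86, and 23 of 24 transfections correlated best with their own number. No comparison of a fragment with itself was run, since 0 such combinations were measured. Depth limits are unknown, as barcode numbers are not in the table.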
